A study of Mus musculus with 7 samples.

Results

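The laminin chains outside laminin-332, the nidogens and perlecan were followed in the lower incisor epithelium of newborn mice with and without Nogo-A in the K14 lineage. The set holds 10 genes, chosen by name from 25700 gene IDs counted: the alpha chain genes Lama1, Lama2, Lama4 and Lama5, the beta chain genes Lamb1 and Lamb2, the gamma chain gene Lamc1, the nidogens Nid1 and Nid2, and the perlecan gene Hspg2. All 10 were found, and all 10 were among the 14791 genes with enough counts to be tested. The study asked how loss of Nogo-A in the dental epithelium changes its transcripts. In the 4 K14;Nogo-A pups (K14cre cre/+; Nogo-A fl/fl, replicates 1, 2, 7 and 10) the keratin 14 promoter drives Cre, so the deletion is aimed at the epithelium and not at mesenchyme, vessels or nerves. The 3 wild-type pups (replicates 3, 8 and 9) carry the label wt for the genotype, and the study describes the controls as littermates. All 7 pups were at postnatal day 0, and each library stands for 1 pup, whose epithelia from both lower incisors were freed with Dispase and pooled. Values per library are listed in the order of replicates 1, 2, 7 and 10 for K14;Nogo-A and 3, 8 and 9 for wild-type.

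A basement membrane is a thin sheet on which an epithelium rests and which also wraps vessels, muscle fibres, fat cells and peripheral nerves. Laminins are cross-shaped trimers of an alpha, a beta and a gamma chain that form a network below the cell, and type IV collagen forms another. Nidogens bridge both networks by binding the laminin gamma1 chain, and perlecan, a heparan sulphate proteoglycan, ties them together. In a tooth this sheet separates the enamel organ from the mesenchyme and is removed below the ameloblasts when enamel secretion starts. The alpha chain sets where a laminin is typical: alpha1 in embryonic epithelia, alpha2 around muscle and Schwann cells and in mesenchyme, alpha4 in vessel walls and alpha5 below most mature epithelia.

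The libraries held 20929207 to 41219439 counts, of which the 10 genes took 0.152% in K14;Nogo-A replicate 1 and 0.210% to 0.274% in the other 6 libraries. K14;Nogo-A replicate 1 had the lowest level of all 7 libraries in 9 of the 10 genes. The epithelial label was checked on 8 defining epithelial markers, among them Epcam, Cdh1, Krt5 and Krt14, which had summed levels of 7150 to 8410 CPM (the usual depth-scaled count unit, with TMM library sizes) in K14;Nogo-A against 5300 to 8430 in wild-type. The libraries also held RNA of other cells. Averaged over 14 mesenchyme markers, log2 CPM was 7.68 to 8.08 in the K14;Nogo-A libraries against 8.36 to 8.52 in the wild-type ones. Averaged over 9 endothelial markers it was 3.83 to 4.50 against 4.54 to 4.74, also without overlap. The average over 4 Y-linked genes was 4.94 to 5.27 in K14;Nogo-A replicate 1 and wild-type replicates 3 and 8, and -3.71 to -3.04 in the other 4 libraries. The pups' sex was not given in the sources at hand.

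The stretch upstream of the gene start is shown for 4 genes to set those with different levels side by side: Lama2 and Nid1, lower without overlap in K14;Nogo-A, and Lama5 and Hspg2, whose levels overlapped between the genotypes. Each sequence covers 190 bases, from 250 to 61 bases before the RefSeq start on GRCm38.p6, and lies outside the annotated exons. The Lama2 sequence lies inside the span of the annotated gene, since the RefSeq start is downstream of the outermost one. RefSeq promoter windows were at hand for 6 of the 10 genes. Lama1, Lama4, Lamc1 and Nid2 had no entry. Capitals mark GGGCGG or its complement CCGCCC, the GC box to which Sp-family factors are known to bind.
Lama2, chr10:27617003-27617192, minus strand: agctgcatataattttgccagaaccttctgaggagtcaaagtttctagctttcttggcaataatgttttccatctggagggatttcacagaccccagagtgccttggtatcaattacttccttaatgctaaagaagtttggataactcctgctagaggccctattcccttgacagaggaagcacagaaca
Nid1, chr13:13437352-13437541, plus strand: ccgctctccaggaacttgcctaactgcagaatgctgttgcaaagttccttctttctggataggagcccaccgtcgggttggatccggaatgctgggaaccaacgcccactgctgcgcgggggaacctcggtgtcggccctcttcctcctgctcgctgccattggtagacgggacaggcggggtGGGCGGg
Lama5, chr2:180225920-180226109, minus strand: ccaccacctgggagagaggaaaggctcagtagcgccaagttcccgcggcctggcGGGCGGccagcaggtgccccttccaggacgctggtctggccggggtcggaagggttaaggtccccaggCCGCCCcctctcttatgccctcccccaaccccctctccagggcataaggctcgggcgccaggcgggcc
Hspg2, chr4:137468553-137468742, plus strand: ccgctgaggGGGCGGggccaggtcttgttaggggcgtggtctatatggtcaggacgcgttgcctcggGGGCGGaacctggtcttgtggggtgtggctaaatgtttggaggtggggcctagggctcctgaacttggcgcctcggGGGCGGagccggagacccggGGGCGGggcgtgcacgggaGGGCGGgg
The Lama2 sequence had a GC content of 42.6% and 0 CpG dinucleotides. The Lamb2 window, not printed since 43 of its bases lie in annotated exons, was alike, with 44.7%, 2 CpG and 0 matches of GGGCGG, and the levels of Lamb2 overlapped between the genotypes. The Nid1 sequence had 62.6% and 13, the Lama5 sequence 71.1% and 12, and the Hspg2 sequence 70.5% and 16. The Lamb1 window, also not printed, had 64.2% and 10, with 2 matches of GGGCGG, and the levels of Lamb1 overlapped as well. Over all 32851 windows of this length the median was 51.6% GC with 4 CpG. GGGCGG was searched on both strands and matched 0 times in Lama2, 1 time in Nid1, 2 times in Lama5 and 5 times in Hspg2, and 22.8% of all windows hold it. These are matches of letters within this window and were not tested as binding sites.

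The 4 alpha chain genes of the set differed widely in level. Per kilobase of exon, the level over all 7 libraries was 19.1 ± 5.02 CPM for Lama5 (SD, n = 7), 5.53 ± 0.994 for Lama1, 4.39 ± 1.02 for Lama4 and 1.93 ± 0.560 for Lama2. Lama1 and Lama4 changed places when length was taken from the longest annotated transcript, at 5.62 and 8.76 CPM per kilobase. Averaged over both genotypes Lamc1 had the highest level of the 10 genes, at 52.2 ± 10.4 CPM per kilobase, then Nid1 at 48.6 ± 11.4, Hspg2 at 43.0 ± 11.1 and Lamb1 at 32.8 ± 5.15. The order of the first 2 turned with the genotype: Lamc1 was above Nid1 in 4 of 4 K14;Nogo-A libraries and below it in all 3 wild-type libraries, at 51.4 ± 5.50 against 58.4 ± 5.63. Nid1 was above Hspg2 in 4 of 7 libraries, while Hspg2 was above Lamb1 in 7 of 7. Lamb2 followed Lama5 at 11.9 ± 1.51 and was above Nid2, at 9.85 ± 2.60, in 6 of 7 libraries. The level of Lamb1 was 56.2 CPM per kilobase by its longest transcript, close to those of Lamc1 and Nid1 at 56.6 and 55.4.

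Lama2, which encodes the alpha2 chain, had the lowest unadjusted p of the 10 genes. It lies on chromosome 10 of GRCm38 from 26980036 to 27619758 (ENSMUSG00000019899). Its level was 19.8, 26.1, 25.3 and 27.1 CPM in K14;Nogo-A against 36.6, 43.1 and 42.3 CPM in wild-type. Every K14;Nogo-A library lay below every wild-type library. The means were 24.6 ± 3.29 (SD, n = 4) and 40.7 ± 3.54 CPM (SD, n = 3), a ratio of 0.605. The log2 fold change was -0.73 (standard error 0.12), with an unadjusted p of 8.3e-05 and an adjusted p of 0.10 in edgeR's quasi-likelihood test over all genes, so it was not called at an adjusted p under 0.05. It was past the thresholds of the study, which ask for an unadjusted P no higher than 0.05 and a change no smaller than 0.5 on the log2 scale. Lama2 was called at an adjusted p of 0.00068 by edgeR's likelihood-ratio test and of 0.00023 by DESeq2, and not by limma-voom, at 0.14. The likelihood-ratio test called 166 genes in all and DESeq2 288, against 5 by the quasi-likelihood test. Without K14;Nogo-A replicate 1, the library with the lowest value, the quasi-likelihood test gave an adjusted p of 0.021 and a log2 fold change of -0.64. Calls over all genes went from 5 to 221 without this library. The adjusted p was 0.030 with no filter on low counts, where 21 genes were called, and 0.024 when the mean of the Y-linked genes was a covariate, where 9 were. Over all alternatives the adjusted p lay between 0.00023 and 0.63 and the log2 fold change between -1.22 and -0.64. The values 0.63 and -1.22 came from edgeR's quasi-likelihood test with the mesenchyme marker mean as a covariate. The mesenchyme means of both genotypes are apart, so that fit reaches beyond the data. The marker means of mesenchyme and endothelium were lower in the same 4 libraries, as given above, and their part in this result was not tested. In bulk RNA fewer cells of a type and less RNA per cell cannot be told apart.

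**Figure D1:**
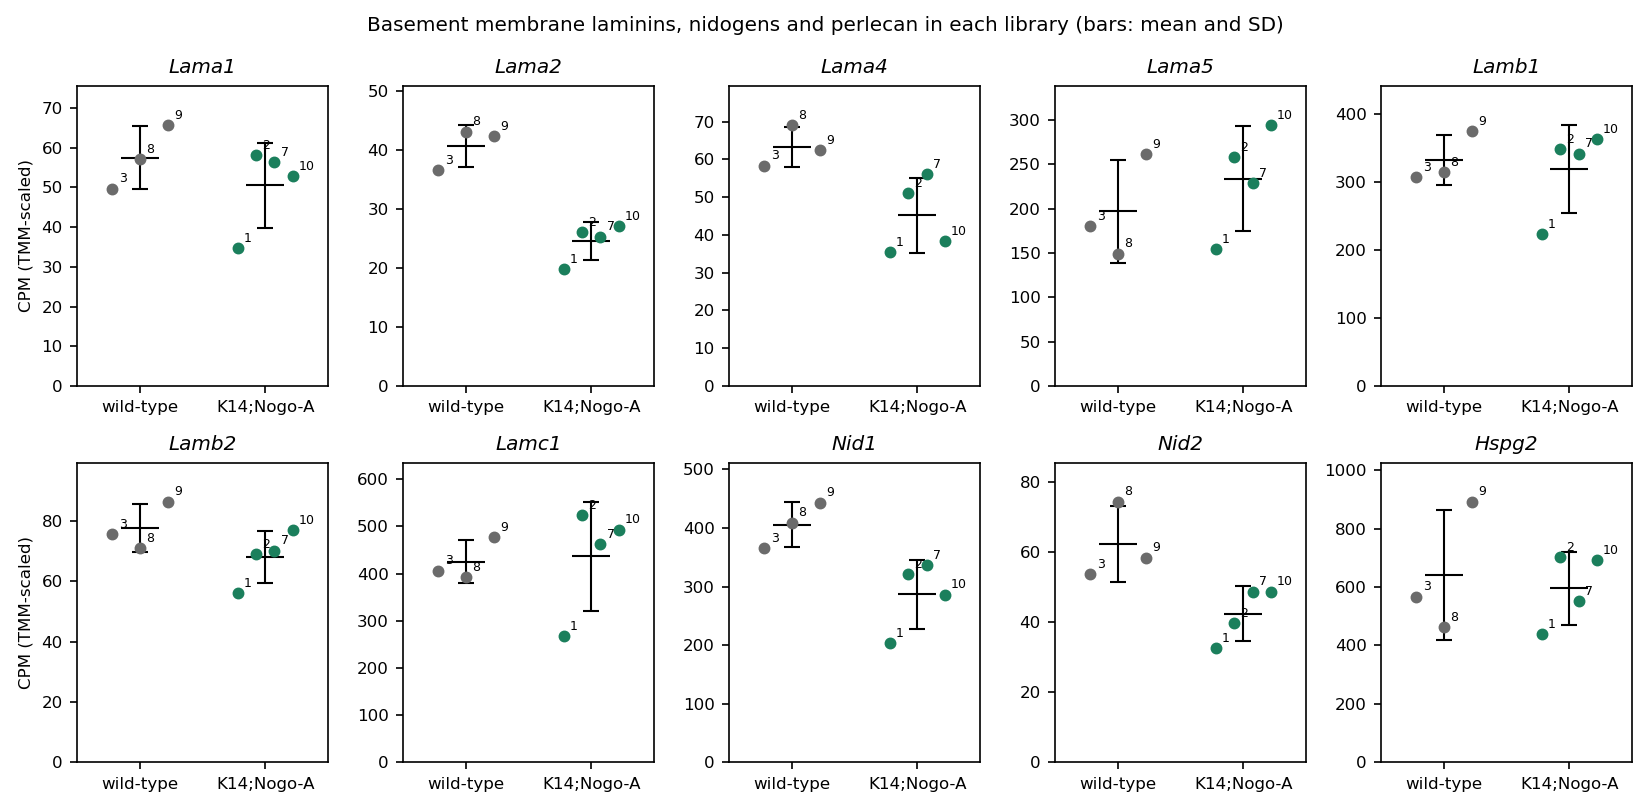
Level of the 10 genes (vertical axes, CPM from 0) in each library, with wild-type (n = 3) in grey and K14;Nogo-A (n = 4) in green. Points are libraries numbered by replicate and bars give the mean and SD. In Lama2, Lama4, Nid1 and Nid2 all K14;Nogo-A points lie below all wild-type points, as in Lama2 with 19.8 to 27.1 against 36.6 to 43.1 CPM, and replicate 1 is the lowest K14;Nogo-A point in all 10 panels.

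Lama4, whose alpha4 chain is typical of vessel walls, was also lower without overlap. The gene lies on chromosome 10 from 38965515 to 39110188 (ENSMUSG00000019846). Its level was 35.5, 51.0, 56.2 and 38.3 CPM in K14;Nogo-A against 58.4, 69.1 and 62.4 CPM in wild-type. The highest K14;Nogo-A library, replicate 7, was close to the lowest wild-type library, replicate 3. The log2 fold change was -0.48 (standard error 0.15, edgeR's quasi-likelihood test, unadjusted p = 0.0088, adjusted p = 0.26). This is just short of the fold change threshold of the study.

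Both nidogens were low in K14;Nogo-A. Nid1, on chromosome 13 from 13437551 to 13512269 (ENSMUSG00000005397), was at 203, 321, 336 and 286 CPM in K14;Nogo-A. The wild-type libraries were at 365, 409 and 443 CPM, all above the highest K14;Nogo-A library. Nid1 differed by -0.50 on the log2 scale (standard error 0.16, edgeR's quasi-likelihood test, unadjusted p = 0.0079, adjusted p = 0.25). Before rounding, this lay just inside 0.5 in size and did not meet the threshold. Nid2, on chromosome 14 from 19751265 to 19811787 (ENSMUSG00000021806), was at 32.7, 39.7, 48.8 and 48.8 CPM in K14;Nogo-A. All 3 wild-type libraries were higher, at 53.8, 74.5 and 58.5 CPM. The log2 fold change of Nid2 was -0.55 (standard error 0.15, edgeR's quasi-likelihood test, unadjusted p = 0.0044, adjusted p = 0.22), past the thresholds of the study. Exons of Nid2 share 437 bases, 8.45% of their length, with Rtraf on the opposite strand, and the sources do not say whether counting used strand, so reads of both could be mixed. Rtraf itself differed by -0.10 on the log2 scale (standard error 0.10). Antisense transcripts also overlap 3.86% of the exon length of Lama2 (Gm48084) and 2.06% of that of Nid1 (Gm48682).

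Of the 10 genes, then, 2 were lower past the thresholds of the study (Lama2 and Nid2), where 2.74% of all genes tested were, and 0 were higher, where 2.02% were. At an adjusted p under 0.05 edgeR's quasi-likelihood test called 0 of the 10 and 0.0338% of all genes. At an unadjusted p under 0.05 it held 4 lower and 0 higher genes, against 6.66% and 6.25% of all genes. DESeq2 called 1 of the 10 and 1.95% of all genes at an adjusted p under 0.05. The likelihood-ratio test of edgeR called 1 and 1.12%, and limma-voom 0 and 0.027%. The genotypes did not overlap in 4 genes, all lower in K14;Nogo-A (Lama2, Lama4, Nid1 and Nid2). In these 4 genes the lack of overlap itself places K14;Nogo-A replicate 1 below both wild-type libraries with Y-linked transcripts. It also places the other K14;Nogo-A libraries below the wild-type library without them, so this adds no separate test. Over all genes tested 6.09% were lower without overlap and 5.43% higher. The median log2 fold change of the 10 genes was -0.19, with 8 negative and 2 positive, against -0.01 over all genes.

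The count at the thresholds of the study moved with single libraries. It was 1, Lama2, without K14;Nogo-A replicate 1, where Nid2 had -0.44, or without wild-type replicate 8, where Nid2 had -0.40. It was 4, with Lama4 and Nid1 added, without K14;Nogo-A replicate 2 (-0.54 and -0.56), K14;Nogo-A replicate 7 (-0.60 and -0.58) or wild-type replicate 3 (-0.54 and -0.57), and when the Y-linked mean was a covariate (-0.59 and -0.69).

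The other 6 genes had overlapping levels. Lama5, the alpha chain of most mature epithelia, on chromosome 2 from 180176373 to 180225859 (ENSMUSG00000015647), had the largest positive value of the 10. It was at 154, 258, 229 and 294 CPM in K14;Nogo-A against 180, 149 and 261 CPM in wild-type. The 3 libraries with Y-linked transcripts, of either genotype, held its lowest levels, between 149 and 180 CPM. On the log2 scale Lama5 differed by 0.25 (standard error 0.24, edgeR's quasi-likelihood test, adjusted p = 0.70), and -0.03 when the Y-linked mean was a covariate. Lama1, the alpha chain of embryonic epithelia, on chromosome 17 from 67697259 to 67822647 (ENSMUSG00000032796), ranged from 34.8 to 58.2 CPM in K14;Nogo-A, against 49.7 to 65.7 in wild-type. On the log2 scale Lama1 differed by -0.18 (standard error 0.17).

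For the chains that most laminin trimers share the genotype means were close. Lamc1, the gamma1 chain to which nidogens bind, on chromosome 1 from 153218922 to 153332786 (ENSMUSG00000026478), had a mean of 425 ± 45.5 CPM in wild-type (SD, n = 3) and 437 ± 116 with the deletion (SD, n = 4), a log2 fold change of 0.04 (standard error 0.20). Lamb1, on chromosome 12 from 31265234 to 31329644 (ENSMUSG00000002900), had -0.06 (standard error 0.16), from 223 to 363 CPM in K14;Nogo-A against 307 to 375 in wild-type. Both chains were lowest in K14;Nogo-A replicate 1, at 267 and 223 CPM, where the other K14;Nogo-A libraries had at least 462 and 342. Wild-type replicates 3 and 8, which also held Y-linked transcripts, were next, at 406 and 392 CPM for Lamc1 and 307 and 315 for Lamb1. As for Lama5, all libraries without these transcripts were higher. Lamb2, the beta chain of the neuromuscular synapse and the kidney filter, on chromosome 9 from 108479736 to 108490530 (ENSMUSG00000052911), differed by -0.19 on the log2 scale (standard error 0.12) and ranged from 56.2 to 77.0 CPM against 71.1 to 86.4. Hspg2, on chromosome 4 from 137468769 to 137570630 (ENSMUSG00000028763), spread most among the wild-type libraries, with 567, 464 and 892 CPM, against 438 to 702 CPM in K14;Nogo-A. On the log2 scale Hspg2 differed by -0.11 (standard error 0.23), and 0.22 without wild-type replicate 9. In the fit without covariates the unadjusted p was under 0.05 in none of these 6 genes, which does not show that their levels were equal. With the Y-linked mean as a covariate, edgeR's quasi-likelihood test gave lower values in K14;Nogo-A. These were -0.40 for Lama1 (unadjusted p = 0.0041, adjusted p = 0.23), -0.31 for Lamb2 (0.0053 and 0.25), -0.34 for Hspg2 (0.023 and 0.33) and -0.27 for Lamb1 (0.025 and 0.34). Lamc1 and Lama5 had an unadjusted p of 0.11 and 0.81 in that fit. The share of all genes with an unadjusted p under 0.05 was not taken for it. The only K14;Nogo-A library with Y-linked transcripts was replicate 1, which had the lowest level in 9 of the 10 genes. In that genotype the covariate and the low level of this library cannot be told apart, so these values carry no separate result.

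Ratios within a library, which do not depend on its depth, were compared for 6 pairs of genes, of which 5 are given. The log2 ratio of Lama5 to Lama2 counts was 2.96, 3.31, 3.18 and 3.44 in K14;Nogo-A against 2.30, 1.79 and 2.62 in wild-type. The K14;Nogo-A libraries were all higher, by 0.98 on average (exact two-sided permutation test, p = 0.0286, the smallest that 4 against 3 libraries can give, adjusted over the 6 ratios p = 0.0857). Lama5 to Lama1 was also higher in 4 of 4 libraries, by 0.45 (exact permutation test, p = 0.0286, adjusted p = 0.0857). Lama5 to Lama4 was higher by 0.75 with overlap (exact permutation test, p = 0.0857, adjusted p = 0.129). The differences were smaller for the pair of beta chains and the pair of nidogens. Lamb1 to Lamb2 differed by 0.12 (exact permutation test, p = 0.286, adjusted p = 0.343) and Nid1 to Nid2 by 0.03 (exact permutation test, p = 0.83, adjusted p = 0.83). None of these ratios passed 0.05 after adjustment.

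The share of each alpha and beta chain in its class was taken from CPM per kilobase, with the laminin-332 chains Lama3 and Lamb3 included. Lama5 gave 41.7% ± 3.26 of the alpha chain level in wild-type (SD, n = 3) and 32.7% ± 9.28 in K14;Nogo-A (SD, n = 4), where its share was 44.8% in replicate 1 and 23.7% to 34.8% in the others. The rest was shared by Lama1 (14.8% ± 3.48 and 8.37% ± 2.45), Lama4 (13.4% ± 4.33 and 6.19% ± 2.54), Lama2 (6.30% ± 1.85 and 2.50% ± 1.02) and the laminin-332 chain Lama3 (23.8% ± 10.1 and 50.3% ± 14.7). Lamb1 gave 32.6% ± 4.40 and 21.1% ± 3.93 of the beta chain level. In both classes K14;Nogo-A replicate 1 stood near the wild-type libraries and apart from replicates 2, 7 and 10. These shares were not tested, and they move with Lama3 and Lamb3, whose log2 fold changes were 1.86 (standard error 0.79) and 0.99 (0.41).

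**Figure D2:**
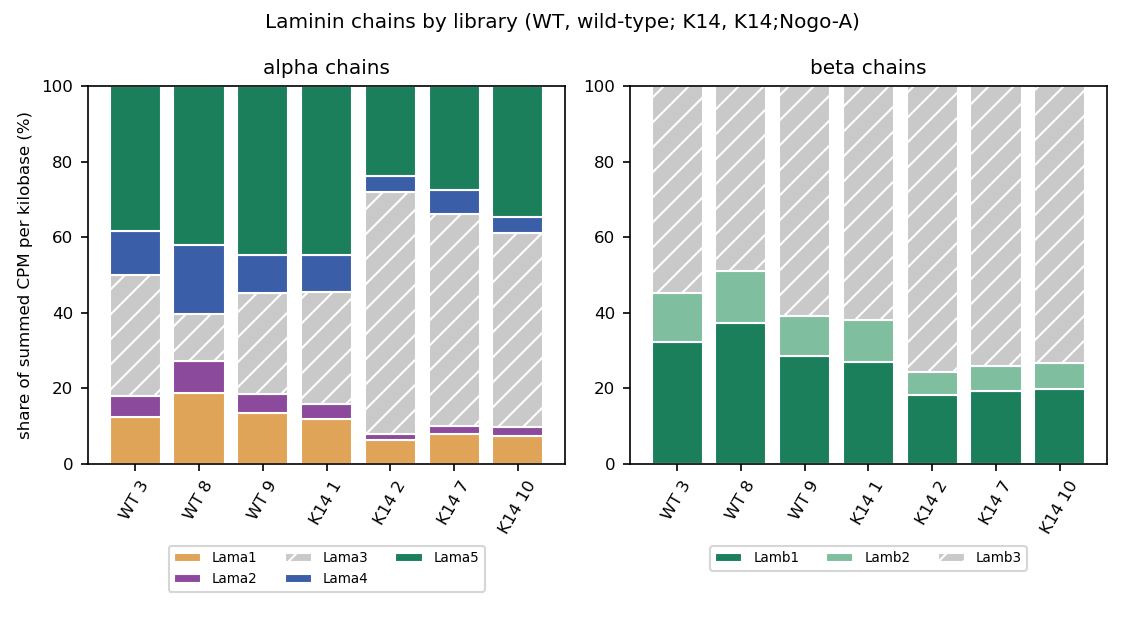
Share of each laminin alpha and beta chain in the summed CPM per kilobase of its class (vertical axis, percent) for the wild-type (WT) and K14;Nogo-A (K14) libraries, with laminin-332 chains hatched in grey. Lamb1 takes 28.4% to 37.2% of the beta chain level in wild-type, and in K14;Nogo-A 26.9% in replicate 1 and 18.3% to 19.8% in replicates 2, 7 and 10.

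Lama4, Lama2 and the nidogens were low in the same libraries as markers of vessels and mesenchyme. All 9 tested endothelial markers had negative log2 fold changes, with a median of -0.51, 5 past the thresholds of the study and 4 without overlap. All 14 mesenchyme markers were negative, with a median of -0.49, 2 past the thresholds and 6 without overlap. Summed levels of the endothelial markers were 153 to 254 CPM in K14;Nogo-A against 264 to 290 in wild-type, and those of the mesenchyme markers 11100 to 33100 and 26300 to 41000. Lama4 kept nearly the same distance from the endothelial mean in every library: its log2 CPM exceeded that mean by 1.29 to 1.32 in K14;Nogo-A against 1.33 to 1.38 in wild-type, while its own log2 CPM went from 5.15 to 6.11. Set against the same markers, the difference between the genotypes was -0.05 for Lama4, -0.06 for Nid1, -0.10 for Nid2 and -0.27 for Lama2. Set against the mesenchyme mean, it was 0.09, 0.07, 0.04 and -0.14, although within K14;Nogo-A replicate 1 had the highest mesenchyme mean, 8.08, and the lowest level of all 4 genes. For Lama5 the difference between the genotypes was 0.71 against the endothelial and 0.84 against the mesenchyme mean, and 0.08 against the 8 epithelial markers. These differences are descriptions chosen after the levels were seen, and the part of these cells in the results was not tested.

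**Figure D3:**
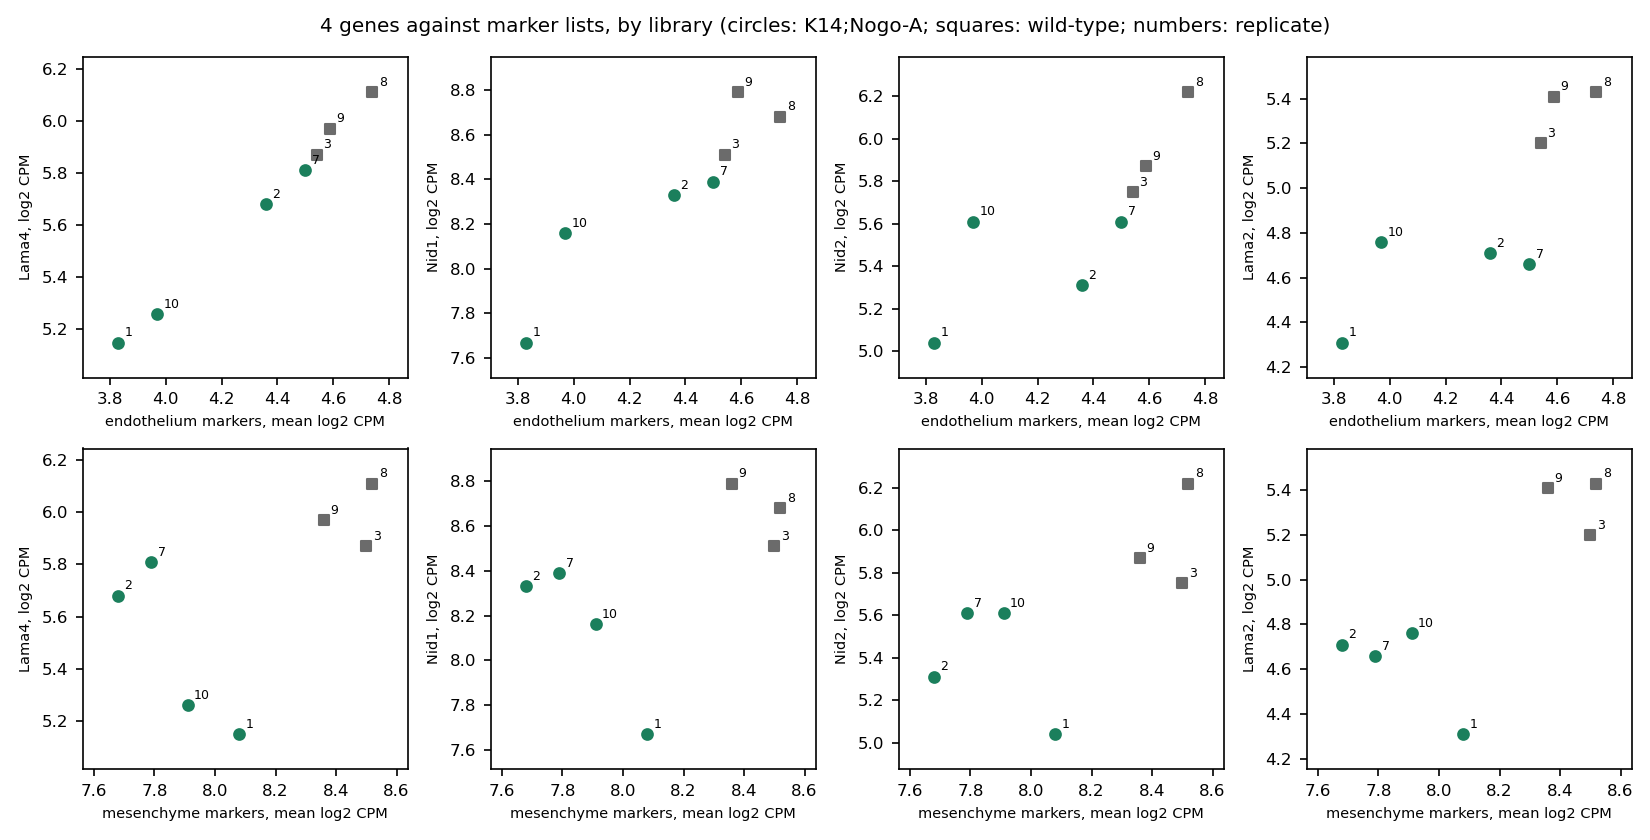
Log2 CPM of Lama4, Nid1, Nid2 and Lama2 (vertical axes) against the mean log2 CPM of 9 endothelial markers (upper row) and 14 mesenchyme markers (lower row), with K14;Nogo-A libraries as green circles and wild-type libraries as grey squares numbered by replicate. The points of Lama4 and the endothelial markers lie along a line from replicate 1 of K14;Nogo-A, at 3.83 and 5.15, to wild-type replicate 8, at 4.74 and 6.11, and for the mesenchyme markers the genotypes form separate groups.

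Marker lists of further cell types were read in the same way. Of 7 pericyte and smooth muscle markers, 1 was lower past the thresholds and the median was -0.15, with summed levels of 312 to 427 CPM in K14;Nogo-A against 401 to 473 in wild-type. Skeletal muscle, whose fibres are wrapped in alpha2 laminin, was little represented: the 7 markers summed to 3.23 to 20.8 CPM and 7.20 to 12.7. The 4 that could be tested were all positive, with a median of 0.57, and 1 was higher past the thresholds. Myod1 and Myog were at 0 in some libraries. Of 6 Schwann cell markers 1 was higher past the thresholds, with a median of -0.15 and summed levels of 57.7 to 62.2 and 55.3 to 62.4 CPM. The 6 immune markers had a median of -0.38, with 1 lower past the thresholds and summed levels of 30.8 to 64.8 and 47.8 to 73.0 CPM. Epithelial markers had a median of 0.14 and none of the 8 passed the thresholds. The 7 ameloblast markers had a median of 1.32, with 3 higher past them, and the 3 odontoblast markers one of -1.01, with none.

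Other genes of the basement membrane were read at the same thresholds. Of 39 such genes 38 were tested, and 2 were lower and 1 higher past the thresholds of the study, where 2.74% and 2.02% of all genes were, with a median log2 fold change of -0.09. EdgeR's quasi-likelihood test called 0 of them at an adjusted p under 0.05, with 6 lower and 1 higher at an unadjusted p under 0.05. The lower genes were Hmcn1, hemicentin-1, a very large matrix protein, with -0.62 (standard error 0.22, adjusted p = 0.29), and the netrin Ntn1 with -0.58 (standard error 0.24, adjusted p = 0.34). The higher gene was Lamb3, the beta chain of laminin-332, at 343, 961, 875 and 901 CPM in K14;Nogo-A and 348, 277 and 536 in wild-type (adjusted p = 0.38). Lama3 had a larger fold change and missed the threshold, with an unadjusted p of 0.063. K14;Nogo-A replicate 1 lay in the wild-type range in both. The 1 higher gene became 2 without this library or without wild-type replicate 9, and 0 without any other library. The 2 lower genes became 4 without K14;Nogo-A replicate 7, and 1 without K14;Nogo-A replicates 1 or 10 or wild-type replicates 3 or 9.

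Type IV collagens, the other network of the sheet, had a median of -0.20 over 6 genes, with none past the thresholds. Col4a6 had the lowest value, at -0.45 (standard error 0.18, adjusted p = 0.34) and 2.63 to 3.52 against 4.10 to 4.51 CPM, and Col4a3 had -0.27 at 0.628 to 1.10 CPM in all libraries. The 21 tested genes among other components, which include agrin, collagens XV and XVIII and the Fras1 family, had a median of -0.10. The 8 laminin receptors had a median of 0.03 and none passed the thresholds. Among them Itga3, the integrin alpha3 subunit, had 0.35 (standard error 0.17, adjusted p = 0.43), and Bcam, the Lutheran glycoprotein that binds alpha5 laminins, had 0.30 (standard error 0.16, adjusted p = 0.45). Dag1, the laminin receptor dystroglycan, had -0.16 (standard error 0.12), with overlapping levels of 199 to 288 against 275 to 303 CPM. Itgb1, the integrin beta1 subunit, had -0.19 (standard error 0.09). It was the 1 receptor of the 8 without overlap, at 681 to 730 against 766 to 831 CPM, where 6.09% of all genes tested were lower without overlap.

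**Figure D4:**
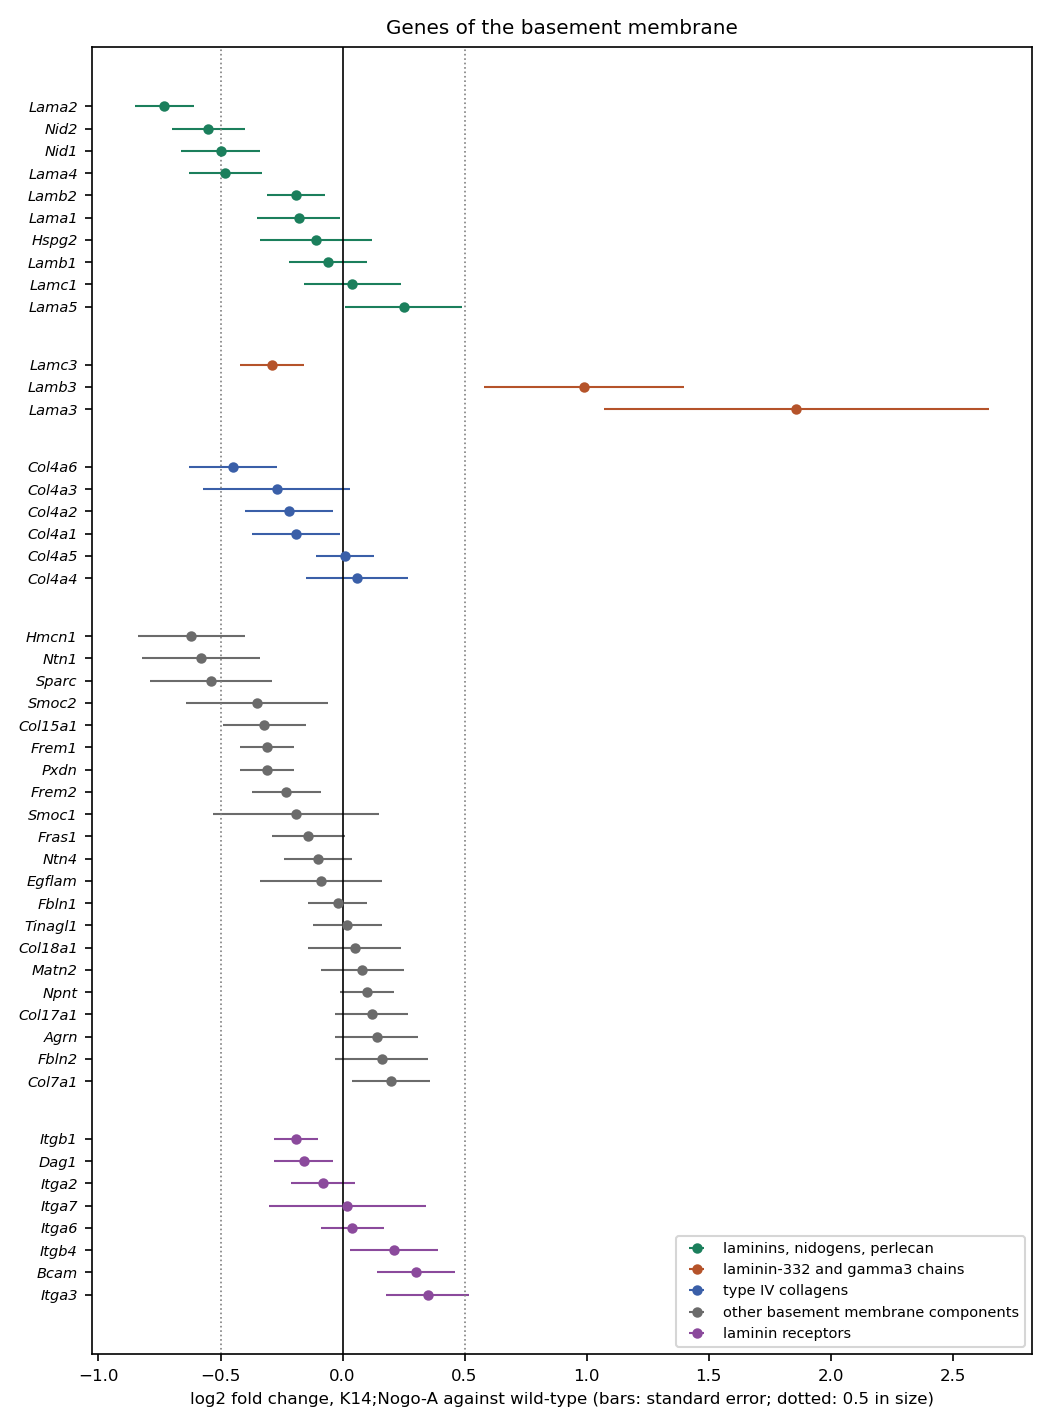
Log2 fold change of K14;Nogo-A against wild-type (horizontal axis, bars give the standard error) for the 10 laminins, nidogens and perlecan and for 38 other genes of the basement membrane, grouped by list, with dotted lines at 0.5 in size. Lama2, at -0.73, is the lowest point of the whole plot, and Lama3, at 1.86 with a standard error of 0.79, the highest.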

How the data were processed

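The authors deposited 1 file of raw read counts per pup and Ensembl gene. The submitters' processing notes name bcl2fastq 2.19, Trimmomatic, STAR 2.7.1, featureCounts and GRCm38, and the paper names fastp for trimming. Whether counting used strand was not given in the sources used here.

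IDs were joined to GENCODE M21 on GRCm38, which gave 25587 of 25700 a symbol. A gene was kept if 50% or more of the libraries of 1 genotype had 10 counts or more. Counts were scaled by TMM and tested with edgeR 4.0.16 in R 4.3.3 (robust quasi-likelihood test, no covariates, p-values adjusted by Benjamini-Hochberg across every gene kept). The log2 form of the study's fold change threshold was used. CPM use TMM library sizes, and log2 CPM a prior count of 2. Levels per kilobase use the union of annotated exons. Ratios added 1 to each count and were tested by the exact permutation of the genotype labels over 35 arrangements. DESeq2 1.42.0 and limma 3.58.1 were alternatives. The tests were tried on simulated counts. Promoter sequences are from RefSeq.

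The genes and lists were chosen with earlier results of these data known. Named genes were the 10 genes, other basement membrane genes past the thresholds, the 2 with the largest change of each list, and the 2 genes nearest to each of the 10. Further genes were named as markers or overlapping genes, and Dag1 and Itgb1 were named after their values were seen. Results that rest on certain other genes are not reported here. The paper names 1 more control animal, not analysed here. P-values measure the spread between single pups.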

Additional observations from a re-analysis of the deposited data

Results flagged for a closer look

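Lamb1 in K14;Nogo-A replicate 1 was at 223 CPM, far from the other 3 libraries of its genotype, which lay between 342 and 363. The gap was 0.845 of the range of the group, above Dixon's 95% limit for 4 samples. The share of Lamb1 in the beta chain level of that library, 26.9%, also stood apart from 18.3% to 19.8% in the others, with a gap of 0.834 of the range. These are 2 of 18 groups of 4 libraries examined, and chance marks about 1 in 20. The same library had the lowest level of 9 of the 10 genes. The part of this library in the results is given by the values without it, and its cause was not tested.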

How the results depend on the processing

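No paired analysis was made, because the sample labels name no pairs of pups between the genotypes. Counts past the thresholds of the study are given as lower and higher for the 38 other basement membrane genes. The 2 lower of the 10 genes were 4 with limma-voom, 8 with the mesenchyme markers as a covariate, 4 with the Y-linked mean as a covariate, and 1 to 4 when a library was left out. They were 3, with Nid1 added, with upper-quartile scaling, no filter or a filter of 10 counts in every library. Of all genes 407, 462 and 349 were lower in these fits. Over all genes tested the 406 lower genes were 514 with limma-voom, 719 with the mesenchyme covariate, 361 with the Y-linked covariate and 240 to 545 without a library. The mesenchyme means of both genotypes are apart, so the covariate fit reaches beyond the data. At an adjusted p under 0.05 the count of 0 became 1 by the likelihood-ratio test, DESeq2, no filter and the Y-linked covariate, and 0 to 1 without a library. The gene called in each case was Lama2, and calls over all genes were then 166, 288, 21 and 9, against 5, and 221 without K14;Nogo-A replicate 1. Of the other basement membrane genes, 2 lower became 13 with the mesenchyme covariate and 4 with the Y-linked covariate, and 1 to 4 without a library. By the likelihood-ratio test and limma-voom they were 3. The 1 higher gene among the other basement membrane genes became 2 by the likelihood-ratio test, DESeq2 and limma-voom. It became 0 with no filter or the Y-linked covariate, and 0 to 2 without a library. Over all genes tested the 299 higher genes became 355, 338 and 362 by these tests. They were 326 with no filter, 203 with the Y-linked covariate and 146 to 542 without a library. Among the 10 genes the signs of 4 turned. Lama5 had -0.93 with the mesenchyme and -0.03 with the Y-linked covariate. Lamc1 had -1.27 and -0.23 with these, -0.01 with limma-voom, and -0.06 to 0.22 without a library. Lamb1 ranged from -0.12 to 0.08 and Hspg2 from -0.29 to 0.22 without a library. The Nid1 to Nid2 ratio went from -0.09 to 0.14 without a library, Lama5 to Lama1 from 0.28 to 0.57 and Lama5 to Lama2 from 0.76 to 1.17, where the fewer libraries cannot reach a p under 0.05. By longest transcript the share of Lama5 was 35.3% in wild-type, and that of Lamb1 was 38.8% there and 25.6% in K14;Nogo-A. For the other results the cause of a change was not tested. Depth did not limit the 10 genes, whose lowest count in a library was 428, in Lama2.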

Other observations

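The genes most like each of the 10 were sought among 11289 genes with a mean of at least 5 CPM, by the root mean square difference of centred log2 CPM over the 7 libraries. For Lama4 the nearest was Pecam1, the platelet and endothelial adhesion molecule, at 0.057, followed by Lcp1, the leukocyte actin bundling protein plastin-2, at 0.068. For Lama2 it was Col6a3, a collagen VI chain of mesenchymal matrix, at 0.056, followed by the axon guidance ligand Slit3 at 0.089. For Lama1 it was the type IV collagen chain Col4a2 at 0.054, and then the elastic fibre gene Fbln5 at 0.067. For Nid1 the second nearest was the osteogenic transcription factor Runx2 at 0.086. For Nid2 they were the neural adhesion gene Negr1 at 0.064 and Ngfr, the p75 neurotrophin receptor, at 0.072. Lama5 was nearest to Gm20518 at 0.066 and Man2b2 at 0.083. Lamb1 was nearest to Zmiz1 at 0.046 and Ndst1 at 0.047, and Lamc1 to Mid1 at 0.045 and Zmiz1 at 0.074. Lamb2 was nearest to Dennd2a at 0.044 and Pacs1 at 0.046, and Hspg2 to Dync1h1 at 0.103 and Fat1 at 0.118. The 7 libraries share their genotype split and the low replicate 1 of K14;Nogo-A, so the likeness is a description and was not tested.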
